A study of Homo sapiens with 9 samples.

Results

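Regions of the genome that carried H3K27ac in control LNCaP cells but were not listed after knockdown of EZH2 are described here. They were chosen from the deposited region lists: a control H3K27ac region on chromosomes 1 to 22 or X was taken if it held at least 8.03 normalised tags and shared no base with any H3K27ac region of the knockdown library. The rule found 378 such regions among the 42647 control regions at or above that minimum, which is 0.886% (95% interval 0.8 to 0.98), and the other 42269 regions were called again. The whole control list held 58134 regions, 56941 of them on these chromosomes. The choice rests on the H3K27ac lists themselves, so the absence of a call is the definition of these regions and not a result about them. They were weak, narrow regions: 197 of the 378 held fewer than 10 normalised tags and 273 were narrower than 300 bp. Among regions below 16 normalised tags, they stood alone more often than all those called again. The order turned against those whose knockdown region overlapped no other control region, a comparison that drops only regions called again with a neighbour. It did not turn when the regions dropped were only those sharing a knockdown region with a control region of more tags. More of the 378 regions than of those called again lay within 10 kb of H3K27me3. Below 16 normalised tags, the difference in the share with a control EZH2 peak inside had an interval that included 0. From 12 to 16 normalised tags, however, more of these regions than of those called again held one. The shares there were 10.3% and 3.3% (difference 6.99 points, 1.75 to 16.5). The strongest of the 378 by tags lay beside long stretches of the genome with no listed region.

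Acetylation of lysine 27 of histone H3 (H3K27ac) marks active promoters and enhancers. EZH2 is the methyltransferase of the Polycomb complex PRC2 and trimethylates the same lysine (H3K27me3), which gives a mark of silenced chromatin, and a given lysine can carry only one of these marks at a time. In prostate cancer EZH2 is known for silencing through this complex, and the title of the series asks about a role as an activator apart from it. LNCaP is an established, androgen-sensitive human prostate cancer cell line.

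All groups were LNCaP cells grown in RPMI with 10% fetal bovine serum. Control cells carried the empty plko.1 vector and knockdown cells a short hairpin against EZH2 (shEZH2), and both were fixed with 1% paraformaldehyde 2 to 3 days after infection. Chromatin was sheared to 200 to 500 bp and precipitated for EZH2, H3K27ac or H3K27me3. Each of these 6 groups held 1 library, so no difference between control and knockdown can be set against a spread between cultures, and no p-value is given. The intervals below are 95% intervals for counting error over regions or tags, and regions are not replicates. The 6 libraries held 13331155 to 33289172 tags. The H3K27ac libraries had 17438009 in control and 22175405 after knockdown. Values called normalised tags below were brought by the authors to a common depth of 10000000 tags. EZH2 peaks numbered 23060 in control and 9493 after knockdown. A fall in the mark within each cell and a fall in the share of cells that carry it cannot be told apart in such bulk samples.

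The lists were not called alike, and this bears on every value below. A control H3K27ac region needed 9 tags in a window of 150 bp, whereas a knockdown region needed 21 tags in a window of 1000 bp, which is 9.47 normalised tags. Of the 378 regions, 207 held at least 9.47 normalised tags in control and 171 held fewer. At the same density, a region of 14 control tags, the minimum of 8.03 once scaled, would hold 17.8 tags in the deeper knockdown library, fewer than the 21 required. Tags from the flanks can fill a window of 1000 bp, however, and 95.3% of the 3641 control regions between 8.03 and 9.47 normalised tags were called again. At or above 9.47 normalised tags, 207 of 39006 regions (0.531%) were not called. The counting error of a faint region is wide as well: 14 tags allow 7.65 to 23.5 by an exact Poisson interval, and the 17 tags of the median member allow 9.9 to 27.2.

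The absence of a call thinned out steeply as control signal rose. It was 197 of 4548 regions (4.33%, 3.76 to 4.96) between 8.03 and 10 normalised tags and 65 of 2382 (2.73%, 2.11 to 3.46) between 10 and 12. From 12 to 16 normalised tags it was 68 of 4402 (1.54%, 1.2 to 1.95), and at 16 or more it was 48 of 31315 (0.153%, 0.113 to 0.203). The median member held 9.75 normalised tags and 90% of members held at most 16.8. In the regions called again the median was 36.1.

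Width followed the same pattern. The median member was 235 bp wide (227 to 242), with quartiles of 193 and 309 bp and extremes of 150 and 1818 bp. Regions called again had a median of 684 bp. Under 300 bp, 3.27% of control regions were not called (273 of 8346), and between 300 and 600 bp 0.893% (99 of 11091). Only 5 of 7745 regions from 600 to 1000 bp and 1 of 15465 above 1000 bp were not called. Most of this gap went with signal: below 16 normalised tags, the 330 members and the 11002 regions called again had median widths of 226 and 253 bp. Their tag densities were alike, at 42.1 and 41.6 normalised tags per kb.

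**Figure D1:**
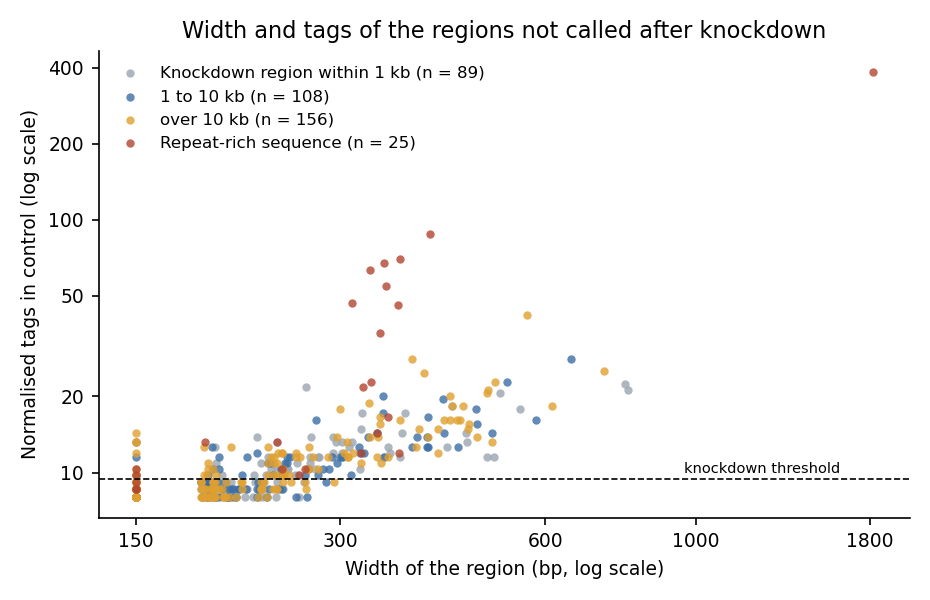
Width (horizontal axis, bp, log scale) against normalised tags in control (vertical axis, log scale) of each of the 378 regions, coloured by the distance to the nearest knockdown H3K27ac region; the dashed line is the 9.47 normalised tags that a knockdown window needed. Most points crowd between 150 and 309 bp near the dashed line, and 9 of the 10 points above 30 normalised tags are in repeat-rich sequence.

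The deposited score, which the peak caller takes from the tags of the peak, was close in both sets. The median score was 10 in members (10 to 11), with a range of 9 to 52, and 11 in regions called again. Below 16 normalised tags both medians were 10. Score and tags parted in the narrowest regions. A region of a single 150 bp window made up 59 of the 378 members (15.6%) and 554 of the 42269 regions called again (1.31%). Among the 11002 of these below 16 normalised tags it made up 552 (5.02%), and the members were not split by signal here. In 23 of those 59 members (39.0%) the tags of the control library reached at least 1.5 times the score, against 7.97% of the 552. Per the file headers the caller counted at most 1 tag per position. The clonal fold, which sets the tags seen at each position against the number expected, is listed as 0 in 6 members and 160 regions called again, and what that value stands for is not given in the sources used here. Among the other 372 members it was above 1.2 or at most 0.5 in 32 (8.6%, 5.96 to 11.9), against 1.85% of regions called again. Away from repeat-rich sequence it was so in 25 of 349 members (7.16%), and the share of regions called again was not computed there. The shares were not matched for signal, although the median was 9.75 normalised tags in members and 36.1 in regions called again. The limits of 1.2 and 0.5 were set after seeing the data. Whether repeated tags at a position had a part in the missing calls was not tested.

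Isolation differed between these regions and those called again, in a direction that depended on how the neighbours of a region were treated. No other control H3K27ac region lay within 10 kb of 190 members (50.3%, 45.1 to 55.4), against 24.6% of all 42647 regions. Below 16 normalised tags the shares were 50.9% of members and 21.2% of regions called again, a difference of 29.7 points (24.3 to 35.1). Members were the fainter there, with a median of 9.18 normalised tags against 10.9. The median distance to the nearest other control region was 10772 bp in these members and 605 bp in the regions called again. The difference held in each of the 4 bins of signal, from 20.4 points at 16 or more normalised tags to 32.8 points below 10. It also held at equal width, with 30.5 points under 300 bp and 26.9 points from 300 to 600 bp.

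**Figure D2:**
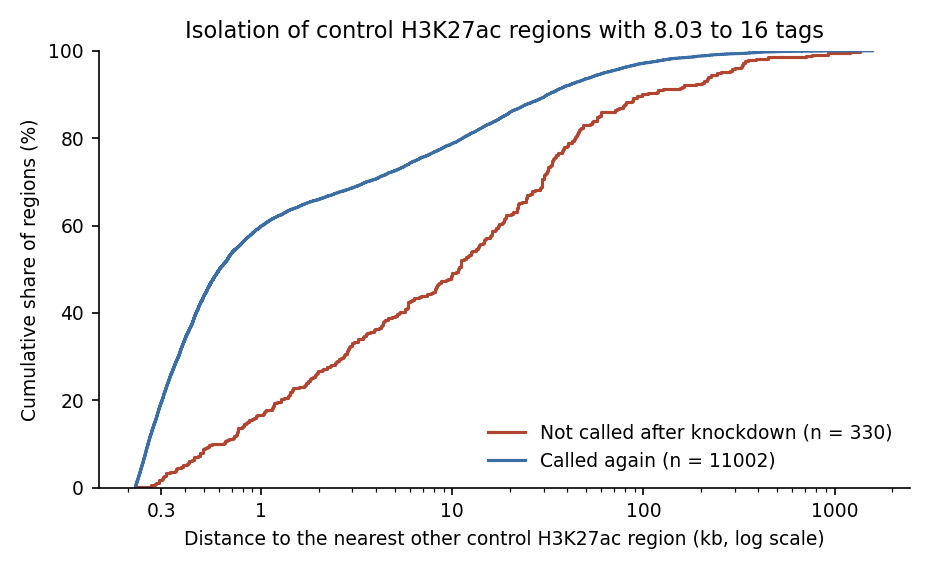
Cumulative share of regions (vertical axis, percent) by distance to the nearest other control H3K27ac region (horizontal axis, kb, log scale) for control regions of 8.03 to 16 normalised tags. Within 1 kb of another region lay 16.7% of the 330 members (red) and 59.9% of the 11002 regions called again (blue), of which 65.2% shared their knockdown region with another control region.

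The order turned once regions covered together with a neighbour were set aside. Knockdown regions were wide, so a faint control region beside another one could be covered by the same call. Of the 11002 faint regions called again, 7169 (65.2%) lay in a knockdown region that also overlapped another control region. For 5522 (50.2%) that other region had more tags. Among the 2332 faint regions called again that stood alone, no knockdown region overlapped another control region. Against the 3833 faint regions called again by a knockdown region that overlapped no other control region, members stood alone less often, at 50.9% against 60.8% (difference -9.93 points, -15.5 to -4.36). This comparison was chosen after seeing the data, and it sets aside regions called again only. None of those set aside stood alone, so this step could only raise the share standing alone among regions called again. It also set aside all 7169, whether or not the other region had more tags. Without only the 5522 whose other region had more tags, 5480 remained, and 2332 of them stood alone. That is a smaller share than the 50.9% of members, so the order did not turn there.

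The share not called showed the same dependence. Between 8.03 and 10 normalised tags, 107 of 1041 lone regions (10.3%, 8.5 to 12.3) were not called, against 90 of 3507 regions with a neighbour within 10 kb (2.57%, 2.07 to 3.15). The lone share was 5.44% from 10 to 12 normalised tags, 3.5% from 12 to 16 and 0.276% at 16 or more. With a neighbour it was 1.98%, 1.01% and 0.111%. Without the regions called again through a shared knockdown region, the shares with a neighbour were 13.1% (10.6 to 15.8) below 10 normalised tags, 10.6% from 10 to 12, 5.61% from 12 to 16 and 0.473% at 16 or more. Each was then above the lone share, but in every bin the interval overlapped that of the lone share. Leaving those regions out can only raise the share with a neighbour. Shares that leave out only regions sharing with one of more tags were not computed in these bins. Over all bins below 16 normalised tags, 162 of 1663 regions with a neighbour (9.74%, 8.36 to 11.3) and 168 of 2500 lone regions (6.72%, 5.77 to 7.77) were not called.

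**Figure D3:**
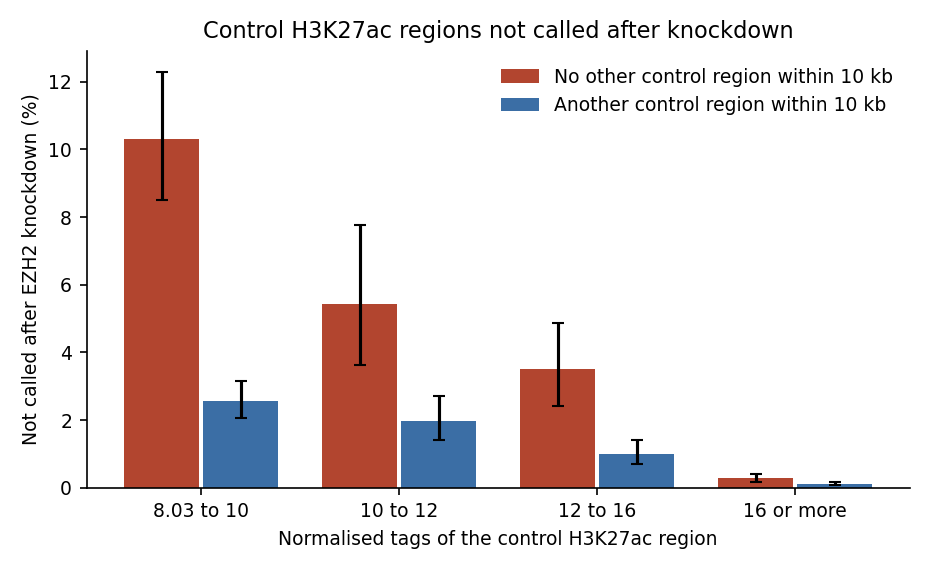
Percent of control H3K27ac regions not called after EZH2 knockdown (vertical axis) by normalised tags of the region (horizontal axis), for regions with no other control region within 10 kb (red) and with one (blue); bars on the columns are exact binomial 95% intervals. In the lowest bin 10.3% of lone regions and 2.57% of regions with a neighbour were not called, and the intervals overlap in no bin. Regions in a knockdown region shared with another control region count as called. Without them, whether or not the other region had more tags, the order turned, with intervals that overlap in every bin.

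After knockdown, the distance from members to listed H3K27ac varied widely. The nearest knockdown region lay at a median of 6759 bp from a member. It lay within 1 kb of 94 members (24.9%), within 10 kb of 217 (57.4%) and within 100 kb of 351 (92.9%). Setting aside 25 members in repeat-rich sequence, 89 had a knockdown region within 1 kb, 108 at 1 to 10 kb and 156 further away than 10 kb. The 3 groups were alike in signal, with medians of 10.3, 9.46 and 9.75 normalised tags, and in width, with medians of 242, 226 and 229 bp. The widest member outside repeat-rich sequence lay beside such a call: chromosome 19 from 51367464 to 51368258 (794 bp, 21.2 normalised tags) ended 69 bp from a knockdown region 18097 bp wide with 1518.3 normalised tags. A second, on chromosome 11 from 19262919 to 19263186, held 21.8 normalised tags in 267 bp, and a knockdown region with 10.4 normalised tags ended 15 bp before it.

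The members with most signal and no knockdown region near them were few. All coordinates are hg19, and genes are not named because no annotation of that build was used here. The strongest outside repeat-rich sequence was chromosome 1 from 214776593 to 214777158. It held 41.9 normalised tags over 565 bp, or 73 tags of the control library (57.2 to 91.8), with a score of 27, and no knockdown region lay within 49972 bp. Its tags were 4.42 times the 9.47 that a knockdown window needed. Chromosome 1 from 156542021 to 156542403 held 28.1 normalised tags (49 library tags, 36.3 to 64.8), with the nearest knockdown region 10531 bp away. Chromosome 15 from 34277176 to 34277907 held 25.2 normalised tags and lay 41740 bp from a knockdown region. Chromosome 2 from 169746543 to 169746941 held 24.7 normalised tags with none within 73326 bp, and chromosome 6 from 126661290 to 126661796 held 22.9 with none within 46938 bp. None of these 5 held an EZH2 peak or overlapped H3K27me3 in control cells. Of the 135 members outside repeat-rich sequence that were up to 1000 bp wide, had no knockdown region within 1 kb and reached the knockdown threshold, the median stood at 1.27 times the threshold, 38 at 1.5 times or more and 12 at 2 times or more. The caller's limit of 1 tag per position may lower the tags it counted, so these ratios are no bounds on a fold change.

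Some members were remote from all other acetylation. Chromosome 2 from 51992645 to 51992947 (11.5 normalised tags) had its nearest control neighbour 1356930 bp away, yet a knockdown region began 1978 bp from it. Chromosome 12 from 23541952 to 23542416 (15.5 normalised tags) was 762877 bp from the nearest control region and 762438 bp from the nearest knockdown region. Chromosome X from 91714753 to 91714903 sat at the minimum, with 8.03 normalised tags, and was 679474 bp from a knockdown region.

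Repeat-rich sequence held the extremes. It was taken from the lists themselves, as the 2 Mb on either side of any stretch of at least 2 Mb with no listed region, which covers the surroundings of centromeres and other gaps in the assembly. Members in it numbered 25 of 378 (6.61%, 4.33 to 9.61), against 1240 of 42269 regions called again (2.93%, 2.77 to 3.1). Of the 10 members with 30 or more normalised tags, 9 lay in it, and of the 48 with 16 or more, 12. Chromosome 11 from 51579453 to 51581271 was the strongest and widest of all members, with 385 normalised tags over 1818 bp and a score of 52. A knockdown region of 12219 bp with 1586.9 normalised tags began 497 bp from its end. Next came chromosome 10 from 38881765 to 38882171 with 88.3 normalised tags and chromosome 10 from 42666742 to 42667109 with 70. Chromosome 16 from 33896449 to 33896797 held 67.7, and chromosome 21 held 63.1 from 10856692 to 10857024 and 54.5 from 14353148 to 14353498. Each of these 5 measured 332 to 406 bp. The clonal fold was above 1.2 or at most 0.5 in 7 of the 23 not listed at 0 (30.4%, 13.2 to 52.9). Reads there can map to several copies, and the part of this in the missing calls was not tested.

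EZH2 itself was inside few of these regions. A control EZH2 peak overlapped 22 members (5.82%, 3.68 to 8.68), against 15.8% of all control regions at or above the minimum. That gap went with signal. Below 16 normalised tags the shares were 4.55% of members and 2.98% of regions called again, a difference of 1.56 points (-0.239 to 4.4). From 12 to 16 normalised tags the order turned, with 10.3% against 3.3% (7 of 68 members, difference 6.99 points, 1.75 to 16.5). Away from repeat-rich sequence 15 of 353 members (4.25%) held a control EZH2 peak, and below 16 normalised tags 3.47% of members and 2.71% of regions called again did. A knockdown EZH2 peak overlapped 18 members (4.76%, 2.85 to 7.42), against 5.51% of all regions. Among faint regions, below 16 normalised tags, it overlapped 3.64% of members and 1.33% of regions called again (difference 2.31 points, 0.748 to 4.93), and 2.11% of those called again without a shared knockdown region (difference 1.52 points, -0.102 to 4.17). Away from repeat-rich sequence it overlapped 8 of 353 members (2.27%, 0.983 to 4.42) and 5.1% of regions called again. Among the faint ones these shares were 1.89% and 1.04%, with a difference of 0.85 points (-0.194 to 3.03).

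The EZH2 peaks inside members were mostly weak. In the 15 outside repeat-rich sequence they held 6.75 to 92.3 normalised tags, with a median of 9, against a median of 9.75 in regions called again. The peak was called again after knockdown in 6 of the 15 (40%, 16.3 to 67.7) and in 19.8% of the 6398 EZH2-bearing regions called again, or 28% of the 289 among these below 16 normalised tags. The interval of the 15 includes the latter share. The strongest member whose EZH2 peak was not called after knockdown either was chromosome 5 from 159848803 to 159849457, with 28.1 normalised tags of H3K27ac over 654 bp and an EZH2 peak of 7.5 normalised tags, 16.8-fold above its surroundings. A knockdown H3K27ac region lay 1481 bp away. At chromosome 3 from 182834054 to 182834478, with 19.5 normalised tags of H3K27ac, an EZH2 peak of 17.3 was not called after knockdown. The knockdown library listed an H3K27me3 region 3119 bp wide there, and the nearest control H3K27me3 region was 739 bp away. On chromosome 9, the members from 78789986 to 78790332 and from 79186581 to 79186922 held strong EZH2 peaks that were called in both libraries. The first had 43.5 normalised tags of EZH2 in control and 55.8 after knockdown, and the second 92.3 and 55.1. Both also overlapped H3K27me3 in both libraries, in narrow regions of 434 and 393 bp in control. In repeat-rich sequence all 7 EZH2 peaks inside members were called in both libraries, with 9.75 to 238 normalised tags in control (7 of 7, interval 59 to 100). In the regions called again there, this held for 174 of 317 (54.9%, 49.2 to 60.5).

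H3K27me3 lay near these regions more often than near those called again, while for overlap the difference did not hold in every comparison. In control cells it overlapped 20 members (5.29%, 3.26 to 8.05), against 1.54% of all control regions at or above the minimum. Repeat-rich sequence held 11 of the 20. Without it the shares were 2.55% of 353 members and 0.743% of regions called again, a difference of 1.81 points (0.6 to 4.03). Among faint regions, they were 2.52% and 0.967% (difference 1.56 points, 0.3 to 3.94). Split by isolation, the difference was 1.23 points for lone regions (-0.618 to 5.15) and 1.22 points for those with a neighbour (-0.0864 to 4.87), so both intervals included 0. So did that of 0.933 points (-0.388 to 3.34) against regions called again without a shared knockdown region. In the knockdown library H3K27me3 overlapped 26 members (6.88%, 4.54 to 9.92), against 2.17% of all regions. Repeat-rich sequence held 9 of the 26. Among faint regions outside it the shares were 4.1% of members and 1.71% of regions called again (difference 2.39 points, 0.683 to 5.19). Against those called again without a shared knockdown region they were 4.1% and 3.05%, and the interval of the difference (-0.74 to 3.89) included 0. The knockdown H3K27me3 list was called with wider windows than the control list, so shares from the 2 libraries cannot be compared with each other.

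The contrast was wider in the neighbourhood. Control H3K27me3 lay within 10 kb of 85 members (22.5%, 18.4 to 27), against 7.97% of regions called again. Below 16 normalised tags and away from repeat-rich sequence the shares were 19.2% and 7.82%, a difference of 11.4 points (7.43 to 16.1). Knockdown H3K27me3 lay within 10 kb of 25.6% and 12.3%, a difference of 13.2 points (8.69 to 18.3). Isolation moved with this, and the contrast was present within both kinds of region. Among faint lone regions the control shares were 23.2% and 14.7% (difference 8.48 points, 2.49 to 15.6), and among faint regions with a neighbour they were 15% and 5.97% (9.06 points, 4.23 to 15.6). Against the faint regions called again without a shared knockdown region they were 19.2% and 12.6% (6.68 points, 2.56 to 11.5). For knockdown H3K27me3 this last comparison gave 25.6% and 19.3% (6.22 points, 1.54 to 11.4). Its difference was 8.48 points among faint lone regions (1.61 to 16.1) and 9.56 points among those with a neighbour (4.1 to 16.5). For EZH2 the interval of the difference included 0: a control EZH2 peak lay within 10 kb of 19.9% of faint members and 21.4% of faint regions called again, a difference of -1.53 points (-5.62 to 3.28).

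**Figure D4:**
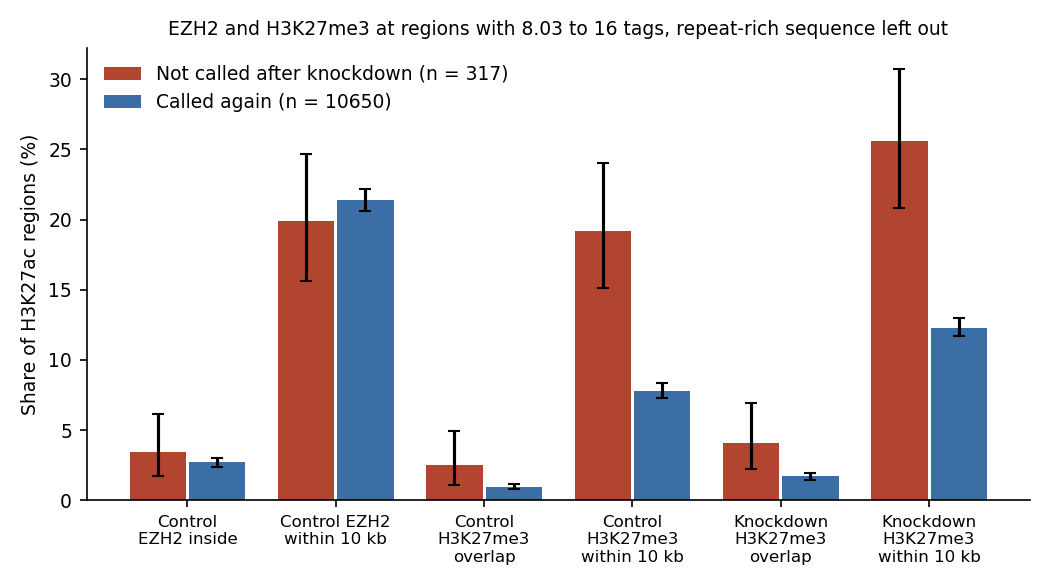
Percent of control H3K27ac regions of 8.03 to 16 normalised tags (vertical axis) that held or lay near an EZH2 peak or H3K27me3 (horizontal axis), for 317 members (red) and 10650 regions called again (blue), with repeat-rich sequence left out and exact binomial 95% intervals. The columns for EZH2 overlap in their intervals, whereas control H3K27me3 within 10 kb stands at 19.2% against 7.82%.

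Overlap with H3K27me3 outside repeat-rich sequence rested on 9 members, and in most of them the H3K27me3 region was narrow. The broadest was at chromosome 5 from 1416306 to 1416564, where a member of 12 normalised tags lay in control H3K27me3 2015 bp wide with 70.6 normalised tags, and in a knockdown region 26209 bp wide. At chromosome 7 from 23513691 to 23513841, control H3K27me3 was 956 bp wide with 30.9 normalised tags. At chromosome 1 from 149194422 to 149194811 it was 618 bp wide with 15.9, and the EZH2 peak of 13.5 normalised tags there was not called after knockdown. The other 6 control regions measured 150 to 434 bp. In 8 of the 9 H3K27me3 was also listed after knockdown, and the exception was chromosome 4 from 99003644 to 99003794.

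Most of these regions had no other member within 100 kb along the chromosome. No equal number of other control regions was set beside them, so whether this spacing is unusual cannot be read from it. Linking members less than 100 kb apart gave 336 single members, 18 pairs and 2 groups of 3. Another member lay within 10 kb of 12 members (3.17%), within 100 kb of 42 (11.1%, 8.13 to 14.7) and within 500 kb of 86 (22.8%). Both groups of 3 were in repeat-rich sequence, on chromosome 11 from 51567142 to 51581271 and on chromosome 8 from 43760217 to 43802262. The first held 3 of 9 listed control regions and the second 3 of 6, and the rest were called again. Outside repeat-rich sequence the pair with most signal was on chromosome 3 from 139635443 to 139734375, with 16.1 and 13.2 normalised tags, and it held no other control region. A pair on chromosome 13 from 26073468 to 26074211 spanned 0.743 kb.

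Neighbouring control regions failed to be called together in a minority of cases. The nearest other control region was also not called for 52 members (13.8%, 10.4 to 17.6), against 2.04% of regions called again. Below 16 normalised tags the shares were 11.5% and 2.16%. Among faint lone regions they came to 6.55% (3.31 to 11.4) and 5.19% (4.32 to 6.17), intervals that overlap. In runs of consecutive control regions not called, including those below the minimum, 299 of the 365 runs with a member consisted of that 1 region, 57 of 2 regions and 9 of 3 or more. The longest had 4 regions, on chromosome 2 from 50357483 to 51992947 and on chromosome 3 from 174874545 to 174895664. No run was longer than these.

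The share varied among chromosomes within counting error. With repeat-rich sequence left out, the share of regions not called ran from 0.401% on chromosome 22 (4 of 997) to 1.31% on chromosome 20 (13 of 994), around 0.853% for all. The interval of 0.109 to 1.02 on chromosome 22 and that of 0.698 to 2.23 on chromosome 20 both include 0.853. Chromosome X stood at 0.596% (6 of 1007).

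**Figure D5:**
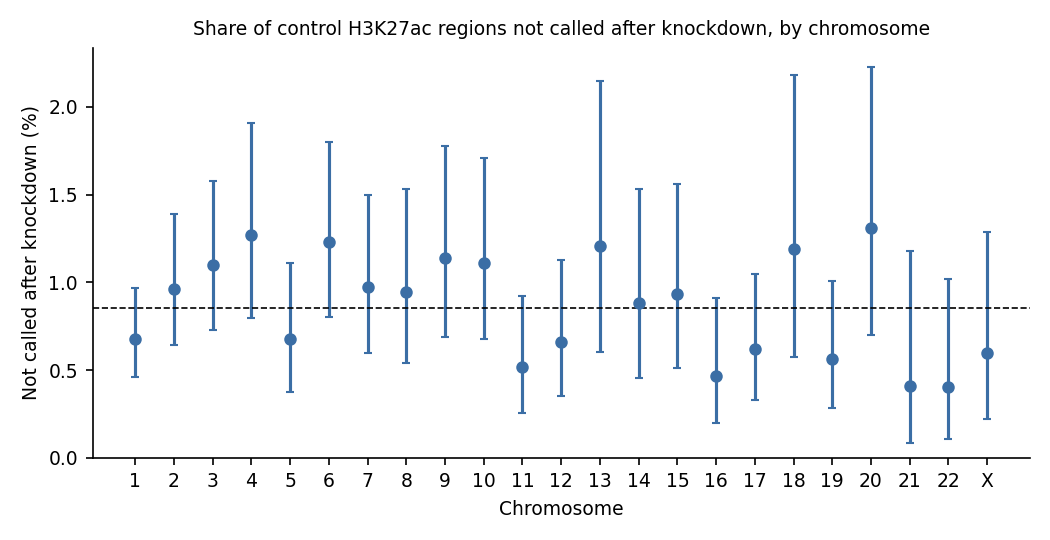
Percent of control H3K27ac regions not called after knockdown (vertical axis) on each chromosome (horizontal axis), with repeat-rich sequence left out and exact binomial 95% intervals; the dashed line is 0.853%, the value for all chromosomes together. Chromosomes 20 and 22 are the extremes at 1.31% and 0.401%, and every interval reaches the dashed line.

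Regions on the 2 sides of the minimum looked alike. At 8.03 normalised tags, or 14 tags, 75 of 1389 control regions were not called (5.4%), and their median width was 192 bp and their median score 10. At 7.45, or 13 tags, it was 112 of 1648 (6.8%), with a median width of 188 bp and a median score of 10. The highest scores just inside reached 14, as at chromosome 1 from 180313355 to 180313551, which lay 32042 bp from a knockdown region. Just outside, chromosome 9 from 92726589 to 92726739 had 7.45 normalised tags and a score of 14 as well, with a knockdown region 17971 bp away. Below the minimum, 1329 of 14294 regions (9.3%) were not called.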

How the data were processed

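EZH2, H3K27ac and H3K27me3 were measured by chromatin immunoprecipitation with sequencing in LNCaP cells, with samples grouped by title and 1 library per group. A further 3 samples were not analysed here. Per the submitters' processing notes, BWA 0.6.1 aligned the reads to hg19 and HOMER 4.1 called the peaks. Per the file headers, the authors used no input library and called the libraries separately, at a false discovery rate of 0.001 for control and a Poisson probability of 0.001 for the knockdown H3K27ac list. The deposited signal counts the tags of a region, scaled to 10000000 per library, and all control H3K27ac values under 100 were within 0.1 tags of whole tags once unscaled. The deposited score comes from the peak caller and is not scaled for depth. The deposited clonal fold is a ratio, and the fold over the surrounding 10 kb is the authors' value for each EZH2 peak. The deposited focus fraction and local p-value were not used.

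Overlap meant at least 1 shared bp, and 1752 control regions without overlap were found with bedtools 2.31.1 as well. Shares have exact binomial (Clopper-Pearson) intervals, differences Newcombe intervals, medians order-statistic intervals and tags exact Poisson intervals, for counting error only. The code was tested on simulated lists. Regions called again were compared with members within bins of tags and width. Named were the members with most tags, the widest, those of highest score, those with EZH2 or H3K27me3, those in clusters, the most remote, and those at the minimum. The strongest outside repeat-rich sequence, lone and paired regions, single windows and shared knockdown regions were added after seeing the data. The clonal fold limits of 1.2 and 0.5 were also set then. Members and lists were chosen with earlier results of these data known. No hg19 genome or annotation was used here, so genes, gene lists, cell line markers and sequences were not computed. Scripts ran in Python 3.11.15 with scipy 1.17.1, pandas 2.3.3 and numpy 2.4.6, and figures were drawn with matplotlib 3.10.9.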

Additional observations from a re-analysis of the deposited data

How the results depend on the processing

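No paired analysis was possible because each group held 1 library, and no library could be left out for the same reason. Of 106 alternative values of the main results, 65 stayed within the main interval, or within 1.5 times for the number of regions, and 41 moved. At 12 normalised tags there were 116 regions (0.325%), of median width 0.351 kb, with control EZH2 in 12.1%, knockdown EZH2 in 8.62%, control H3K27me3 in 10.3%, knockdown H3K27me3 in 14.7% and another member within 100 kb for 6.9%. At 16 there were 48 (0.153%), of 0.415 kb, and the first 4 shares were 14.6%, 12.5%, 16.7% and 22.9%. Of these 48, 12 lay in repeat-rich sequence, and in the other 36 the shares were 11.1%, 5.56%, 2.78% and 11.1%. At 9.47, a minimum chosen after seeing the data, there were 207 (0.531%), of 0.3 kb, and 7.25% had another member within 100 kb. With no minimum there were 1707 (3%), of median width 0.15 kb and score 9, with control EZH2 in 2.81%, control H3K27me3 in 2.75% and another within 100 kb for 28.2%. With no knockdown region allowed within 1 kb, 0.666% were not called, 64.4% stood alone and 8.1% had another member within 100 kb. With at least 50% coverage needed for a call, 0.997% were not called. Without the surroundings of each chromosome's longest stretch, control H3K27me3 overlapped 2.82%. Without those of every stretch of at least 2 Mb, a class chosen after seeing the data, it overlapped 2.55% and knockdown EZH2 2.27%. By construction, distances moved the shares too. Control EZH2 lay within 10 kb of 24.1% and control H3K27me3 of 22.5%. No other control region lay within 5 kb of 59.5% and within 50 kb of 17.7%, a knockdown region lay within 2 kb of 32.5% and within 50 kb of 86.8%, and another member within 50 kb of 6.88% and within 500 kb of 22.8%. The difference in isolation was 25.9 points over all regions. It turned to -9.93 points below 16 normalised tags without regions called again through a shared knockdown region. That comparison was chosen after seeing the data and drops only regions called again with a neighbour, whether or not that neighbour had more tags. The difference in EZH2 turned as well: members held control EZH2 less often than regions called again by 10.1 points (-10.1), but more often by 6.99 points from 12 to 16 normalised tags. The cause was not tested. The depth limits what a faint region can show, since 14 tags allow 7.65 to 23.5.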

Other observations

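Below the minimum of 8.03 normalised tags, where counting error is widest, 1329 of 14294 control H3K27ac regions were not called after knockdown, and with no minimum at all the number was 1707. Their median width was 150 bp, a single window of the control caller. With no minimum, 28.2% had another such region within 100 kb, against 11.1% of the 378 members, and 2.81% held a control EZH2 peak, against 5.82%. The 1707 include the 378 members, and a larger set has more neighbours within 100 kb by its number alone. The share with EZH2 was not matched for signal.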
